A study of Rattus norvegicus with 22 samples.

Results

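The microRNAs (miRNAs) described here are miR-25, miR-32, miR-92a, miR-92b and miR-363, taken by name in any copy and either arm. The deposited tables hold 468 distinct miRNA names, and 9 of them met this rule: rno-miR-92b-3p (written without the rat prefix below, like the others), miR-92b-5p, miR-25-3p, miR-25-5p, miR-92a, miR-92a-3p, miR-92a-1-5p, miR-32-5p and miR-363-3p. They were measured by small RNA sequencing of the CA1 region of the hippocampus from male Long Evans rats, a pigmented outbred strain. All rats were 14 weeks old and had been injected under the skin every day for 21 days. The treated group (11 libraries) received chlorpyrifos (CPF), an organophosphate insecticide that inhibits acetylcholinesterase, at 10 mg/kg per day, and the control group (11 libraries) received its vehicle, peanut oil. The labels describe 1 cohort that underwent fear conditioning and 1 that did not, without assigning libraries to them, and they name no animals. The p-values thus speak of library-to-library spread, which may in part be technical.

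A miRNA recognises its target transcripts mainly through its seed, bases 2 to 8 from the 5′ end, and miRNAs with the same seed can share targets. The miR-25 and miR-92 family is known for repressing the transcripts of Bim, which promotes apoptosis, and of other regulators of survival and the cell cycle. Among its members miR-92b is known from neural progenitors of the developing brain, whereas miR-92a and miR-363 are made from clusters that are active in dividing cells, and miR-25 from a cluster within the gene of a DNA replication factor. Target transcripts were not analysed here.

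RefSeq (build GRCr8) held a mature sequence for 8 of the 9 names. The 5 that carry the family seed are shown 5′ to 3′, with the seed in capitals, because the seed defines the family and the remaining bases are what tells its members apart.
miR-92b-3p: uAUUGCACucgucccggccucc
miR-92a-3p: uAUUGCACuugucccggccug
miR-25-3p: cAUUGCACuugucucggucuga
miR-32-5p: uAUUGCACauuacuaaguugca
miR-363-3p: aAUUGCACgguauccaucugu

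The seed AUUGCAC was found in 5 of the 693 mature names in the RefSeq table, all of them members. Positions are counted from 1 at the 5′ end, with the base of miR-92b-3p first. Over the 21 positions they share, miR-92a-3p was identical to miR-92b-3p at 19 and differed by C10U and C21G. miR-25-3p was identical at 16 of 22 positions, miR-32-5p at 11 of 22 and miR-363-3p at 10 of 21. The first 3 of the sequences shown are thus close relatives, and the last 2 share little beyond the seed. The family arm is the 3p arm in 4 of these miRNAs and the 5p arm in miR-32. Over their whole length, seed included, they also differed in composition, from 31.8% G and C in miR-32-5p to 63.6% in miR-92b-3p.

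The other 3 matched names are the opposite arms of the hairpins, and each has a seed of its own. The hairpins of the most abundant members are shown with both mature arms in capitals, the 5p arm first, since the arms were recovered very unequally.
Mir92b: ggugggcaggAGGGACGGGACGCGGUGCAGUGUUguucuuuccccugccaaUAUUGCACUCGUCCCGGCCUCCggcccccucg
Mir25: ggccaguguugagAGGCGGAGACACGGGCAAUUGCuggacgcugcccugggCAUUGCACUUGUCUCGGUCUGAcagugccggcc

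In the RefSeq gene table of the same build, Mir25 overlaps Mcm7, the replication factor gene, and has Mir93 and Mir106b within 2000 bases. Mir32 overlaps Tmem245. Mir92b overlaps no other gene and lies within 2000 bases of Thbs3 and Muc1. Mir92a1 neighbours Mir17, Mir18a, Mir19a, Mir20a and Mir19b1, while Mir363 and Mir92a2 neighbour each other and Mir19b2, Mir20b and Mir106a. Mir92b and Mir32 have no other miRNA gene within that distance in this table, whereas the other member genes stand in clusters.

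Levels are given in reads per 1000000 reads assigned to miRNAs (RPM). The libraries were shallow, with 47844 to 94980 reads recovered from the steps between low values, so that a single read was worth 10.5 to 20.9 RPM. A level of 3 reads, 31.6 to 62.7 RPM depending on the library, was taken as the floor, which also limits what a value of 0 allows. The floor covers counting error only. The neuronal miRNAs of the tissue (19 names) summed to 53647 to 78674 RPM in control and 55911 to 77734 in CPF libraries. Of these names 8 were under the floor on average, and miR-9a-5p alone averaged 51643 RPM over all libraries. Vessel wall miRNAs (5 names, 1 under the floor) summed to 222209 to 283833 RPM in control and 221152 to 313435 in CPF libraries. Of these, miR-143-3p alone averaged 263757 RPM over all libraries. Oligodendrocyte miRNAs (4 names) summed to 47329 to 90058 RPM in control and 33453 to 81828 in CPF libraries, and miR-338-3p alone averaged 53109 RPM over all libraries. Microglia miRNAs (4 names, 2 under the floor) summed to 119.8 to 355.6 and 149.5 to 297.2 RPM. The 4 red blood cell names (miR-144 and miR-451), which matter here because miR-25, miR-92a and miR-363 are also found in blood, were all under the floor on average and summed to 12.6 to 65.9 RPM in control and 0 to 79.5 in CPF libraries. CPF replicates 7, 8 and 9 stood apart in choroid plexus and ependyma miRNAs (9 names, 5 of them under the floor on average), which summed to 2285, 4973 and 8005 RPM there and to 580 to 1232 RPM in the other 19 libraries.

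By the names to which reads were assigned, a single member made up nearly all of the family. How reads were split between it and the near-identical miR-92a-3p is not known. miR-92b-3p stood at 30659 ± 3910 RPM (SD, n = 22) and was the name of rank 8 among 468 by mean level. The 7 names above it were miR-143-3p, miR-27b-3p, miR-30d-5p, miR-29a-3p, miR-338-3p, miR-9a-5p and miR-3586-3p. miR-92b-3p took 93.8 ± 0.904% of the family's RPM in the 11 control libraries and 93.3 ± 0.950% in the 11 CPF libraries (SD), and never less than 92.2% in any library. The family as a whole took 3.42 ± 0.393% of a control library (2.90 to 4.10%) and 3.13 ± 0.357% of a CPF library (2.51 to 3.75%). Without miR-92b-3p it took 0.211 ± 0.0307% and 0.206 ± 0.0189%. These sums over members were not tested.

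The remaining levels fell off in steps. miR-25-3p followed at 1868 ± 224 RPM (SD, n = 22), at rank 39, and its highest library (2307 RPM) lay far below the lowest library of miR-92b-3p (23179.5 RPM). The ratio of miR-92b-3p to miR-25-3p was 17.2 ± 2.79 in control and 16.0 ± 2.61 in CPF libraries. miR-32-5p (112 ± 32.1 RPM) and miR-92a (80.4 ± 44.1 RPM) came next. Their ranges overlapped, and the difference between them within libraries was not tested. Both were detected in 22 of 22 libraries, at 8.18 and 5.73 reads per library on average.

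The last 5 names were all under the floor on average. miR-92a-3p was at 12.0 ± 16.4 RPM and above 0 in 10 of 22 libraries, miR-92b-5p at 7.72 ± 10.9 RPM in 9, miR-363-3p at 4.26 ± 8.72 RPM in 5, and miR-25-5p and miR-92a-1-5p at 1.23 RPM each in 2. Differences between these neighbours in the order rest on few reads and were not tested. Levels of different miRNAs were compared as shares of reads, with no correction for length (21 to 24 bases) or for how well each sequence is captured. miR-92a and miR-92a-3p stand as separate names, and miR-92a has no RefSeq entry of that exact name, so the split between them, and between miR-92a-3p and the near-identical miR-92b-3p, is uncertain. Summed, the 2 miR-92a names came to 97.9 ± 46.7 RPM in control and 87.0 ± 46.8 RPM in CPF libraries.

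**Figure D1:**
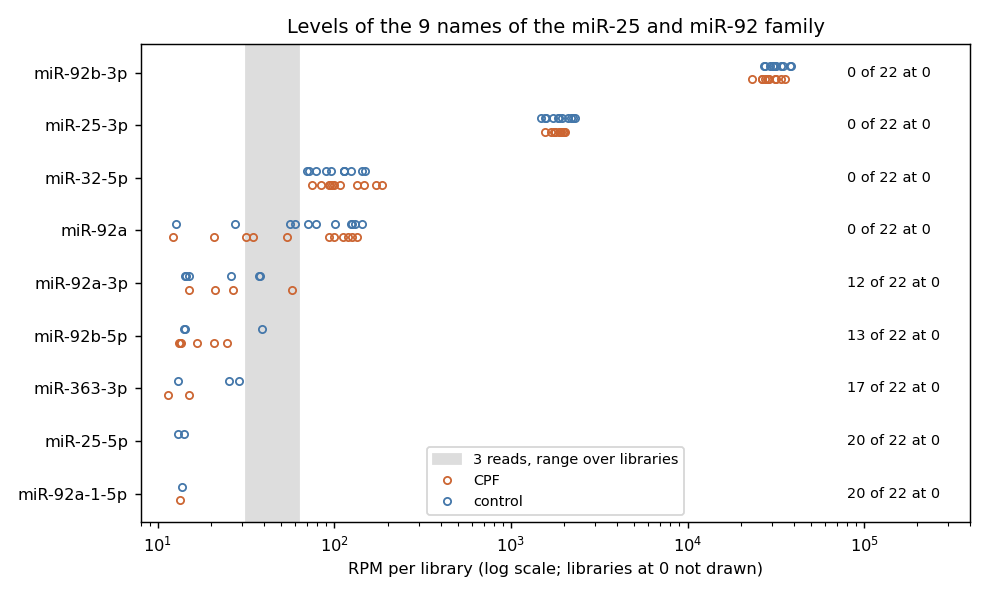
RPM (log axis) of the 9 family names in each control (blue) and CPF (orange) library, with libraries at 0 counted at the right and the worth of 3 reads shaded. miR-92b-3p lies at 23179.5 RPM or above in every library, miR-25-3p between 1472 and 2307 RPM, and 5 names are at 0 in 12 to 20 of 22 libraries.

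The arms of the abundant hairpins were recovered almost entirely from 1 side. Over all 22 libraries miR-92b-3p gathered 49035 reads and miR-92b-5p 12, a ratio of 4086. This ratio rests on the 12 reads, and the split of reads between miR-92b-3p and miR-92a-3p is not known. For Mir25 the 3p arm gathered 2970 reads and the 5p arm 2, both of them in control libraries. In the hairpins shown above, the recovered arm is the one that holds the family seed. miR-92b-5p was above 0 in 3 control and 6 CPF libraries, with means of 6.13 ± 12.3 and 9.31 ± 9.53 RPM (SD, 11 libraries per group). Because both means are under the floor, no fold change is given.

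The central comparison asked whether CPF changed the level of any member. None was called. limma on log2(RPM + 1), with a threshold of 0.05 on the Benjamini-Hochberg adjusted p, tested 273 miRNAs and called 2, or 0.733%, neither of them a member. Of the 9 members 4 passed the filter of at least 10 RPM in at least 11 libraries, and 0 of these 4 were called, and 0 had an unadjusted p below 0.05. With recovered reads, edgeR called 0 of 2 members (4 of 140 miRNAs, 2.86%) and DESeq2 called 0 of 9 (5 of 418, 1.2%). The 9 include the 5 names under the floor, with 2 to 20 reads over all 22 libraries, too few to decide. In these fits 0 members had an unadjusted p below 0.05. In edgeR with no filter on low counts, miR-92b-3p had an unadjusted p of 0.0411 (adjusted p = 0.607). The log2 fold change was below 0 in 3 of the 4 tested members, with a median of -0.08, and below 0 in 46.9% of all 273 miRNAs, with a median of 0.02.

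miR-92b-3p, the dominant member, had the smallest p of the 4. Control libraries ran from 27195 RPM over a median of 31187 to 38514, and CPF libraries from 23179.5 over 28401 to 35649.6. The groups overlapped widely, although 8 of 11 CPF libraries lay below the control median and 3 lay below the lowest control. The means were 32099 ± 3827 and 29219 ± 3590 RPM (SD, n = 11 each), or 2273 and 2185 reads per library. The log2 fold change was -0.14 (SE 0.0717, 95% CI -0.28 to 0.01, a ratio of 0.910 with limits 0.822 and 1.01), with a limma unadjusted p of 0.0676 and an adjusted p of 0.769. By p it was number 24 of 273. In bulk tissue, fewer cells of a type and less RNA per cell cannot be told apart.

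The lowest value of miR-92b-3p, 23179.5 RPM, was that of CPF replicate 9. This library also had the fewest reads (47844), the highest miR-143-3p (311596 RPM) and the highest choroid plexus sum (8005 RPM). Without it the log2 fold change was -0.10 (limma adjusted p = 0.911). Of the other 2 libraries high in choroid plexus miRNAs, CPF replicate 7 was at 33809 RPM of miR-92b-3p and replicate 8 at 26363. Without all 3 the CPF mean was 29757 ± 2949 RPM (n = 8) and the log2 fold change -0.11 (95% CI -0.25 to 0.04, limma adjusted p = 0.925). RPM are shares of a total, and miR-143-3p alone stood at 259666 ± 17535 RPM in control and 267848 ± 26205 RPM in CPF libraries (SD, 11 per group). Computed over the reads that were not miR-143-3p, the log2 fold change of miR-92b-3p was -0.12 (limma adjusted p = 0.844).

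The library codes begin with the digits 1 and 4 in control and 3 and 6 in CPF, and the labels do not say what they stand for. miR-92b-3p averaged 32139 ± 4050 RPM (n = 5) at digit 1 and 32065 ± 4022 (n = 6) at digit 4, which is level within the spread. In CPF libraries it averaged 30244 ± 3282 RPM (n = 6) at digit 3 and 27988 ± 3910 (n = 5) at digit 6. The log2 fold changes were -0.09 for digit 3 against 1, -0.08 for 3 against 4, -0.20 for 6 against 4 and -0.20 for 6 against 1, with limma adjusted p of 0.955, 0.902, 0.745 and 0.664. Whether the CPF effect differed between digits was not tested. The digit 6 libraries include CPF replicates 7, 8 and 9.

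**Figure D2:**
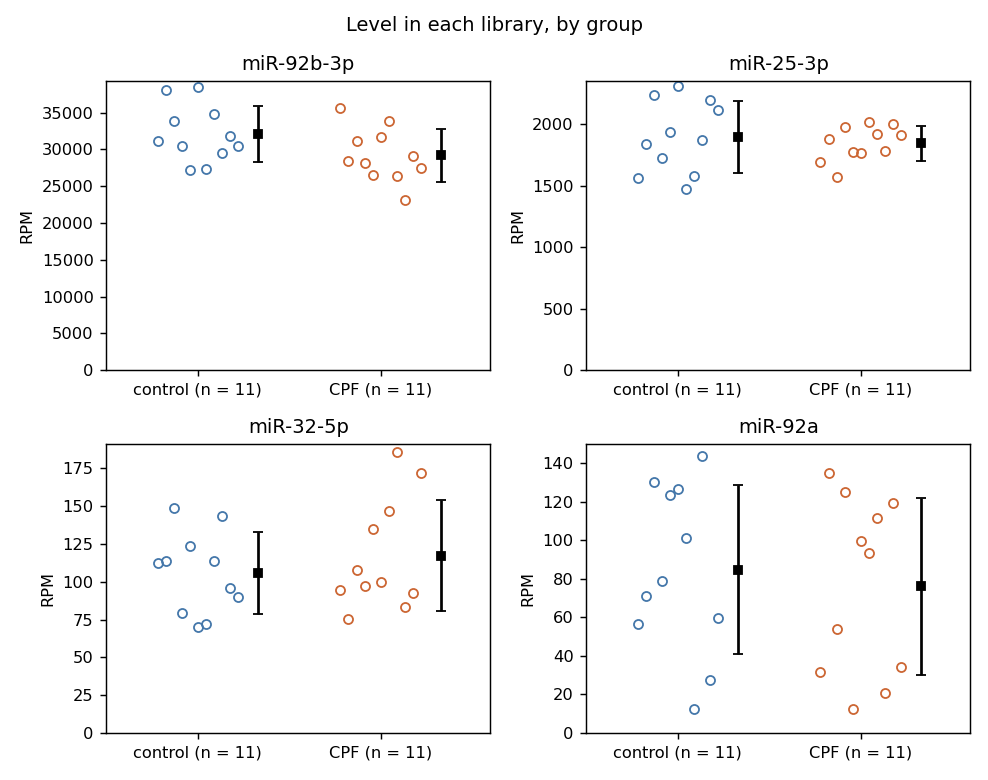
RPM in each library (circles) with the mean ± SD of the group (black square and bar) for the 4 members that were tested, control in blue and CPF in orange, on axes that start at 0. The groups overlap in all 4 panels, and for miR-92b-3p 3 CPF libraries lie below the lowest control.

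miR-25-3p, the second member by level, was level between the groups. Control libraries ran from 1472 RPM over a median of 1867 to 2307, and CPF libraries from 1567 over 1876 to 2018. All CPF values lay within the range of the controls. The means were 1893 ± 291 and 1843 ± 141 RPM (SD, n = 11 each), or 133.4 and 136.6 reads per library, and the log2 fold change was -0.03 (SE 0.0803, 95% CI -0.19 to 0.14, limma adjusted p = 0.972). The interval leaves room for a ratio of 0.876 to 1.10. The SD of the controls was larger than that of CPF libraries, a difference that was not tested.

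miR-32-5p, whose gene lies within Tmem245, ran from 70.3 RPM over a median of 113 to 149 in control libraries. In CPF libraries it ran from 75.05 over 99.7 to 186, so that 2 CPF libraries (replicates 8 and 11) exceeded the highest control, while 7 of 11 were below the control median. The means were 105.8 ± 26.9 and 117 ± 37.0 RPM (SD, n = 11 each), with a log2 fold change of 0.13 (95% CI -0.30 to 0.56, limma adjusted p = 0.954). At 7.45 and 8.91 reads per library, a ratio anywhere between 0.812 and 1.48 was within this interval. With each library left out in turn the log2 fold change lay between 0.06 (without CPF replicate 8) and 0.19 (without CPF replicate 2), and it was the opposite, -0.18, for code digit 3 against 1.

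miR-92a was the most scattered of the tested members. It ran from 12.6 RPM over a median of 79.1 to 143.6 in control libraries and from 12.2 over 93.5 to 135 in CPF libraries, which corresponds to 1 to 11 reads in a control library. The lowest library of each group thus rests on a single read. The means were 84.7 ± 43.8 and 76.1 ± 46.0 RPM (SD, n = 11 each), the log2 fold change was -0.23 (95% CI -1.15 to 0.68, limma adjusted p = 0.954), and 6 of 11 CPF libraries were above the control median. The direction of the log2 mean and that of the median therefore differed. Single libraries moved this value widely, to -0.47 without control replicate 8 and to -0.01 without CPF replicate 5, the lowest library of each group. The interval holds ratios from 0.451 to 1.61, so that smaller differences were not detectable at this depth.

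The 3 other names with values in either group were compared by detection only. miR-92a-3p was above 0 in 6 control and 4 CPF libraries (13.2 ± 14.9 and 10.9 ± 18.3 RPM), with its highest value, 57.4 RPM, in CPF replicate 11. miR-363-3p, encoded beside Mir92a2, was above 0 in 3 control and 2 CPF libraries (6.10 ± 11.1 and 2.41 ± 5.42 RPM). miR-92a-1-5p, the opposite arm of Mir92a1, was seen as 1 read in a single library of each group. All of these means lie under the floor.

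**Figure D3:**
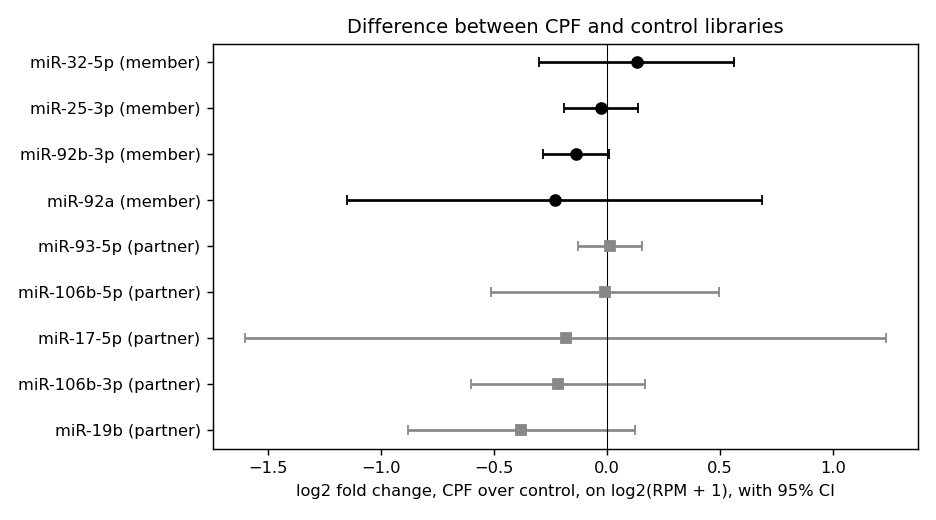
Log2 fold change of CPF over control on the log2(RPM + 1) scale with its 95% CI from limma, for the 4 tested members (black circles) and the 5 tested cluster partners (grey squares). All intervals include 0, and they widen from miR-93-5p and miR-92b-3p to miR-92a and miR-17-5p, which rest on few reads.

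How much of the spread was beyond read counting differed between the members. For miR-92b-3p, counting alone would give an SD of 2.11% of the mean in control and 2.18% in CPF libraries, against observed values of 11.9% and 12.3%. The libraries of a group thus differed by 5.66 and 5.63 times the counting error. Among the 20 most abundant names its observed spread was ordinary, as these ran from 4.40 to 25.4% with a median of 12.0% in control and from 7.18 to 27.4% with a median of 9.78% in CPF libraries. For miR-25-3p the observed SD was 1.77 times the counting SD in control and 0.877 times in CPF libraries. For miR-32-5p it was 0.692 and 0.915 times, no more than counting gives, and for miR-92a it was 1.26 and 1.41 times.

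**Figure D4:**
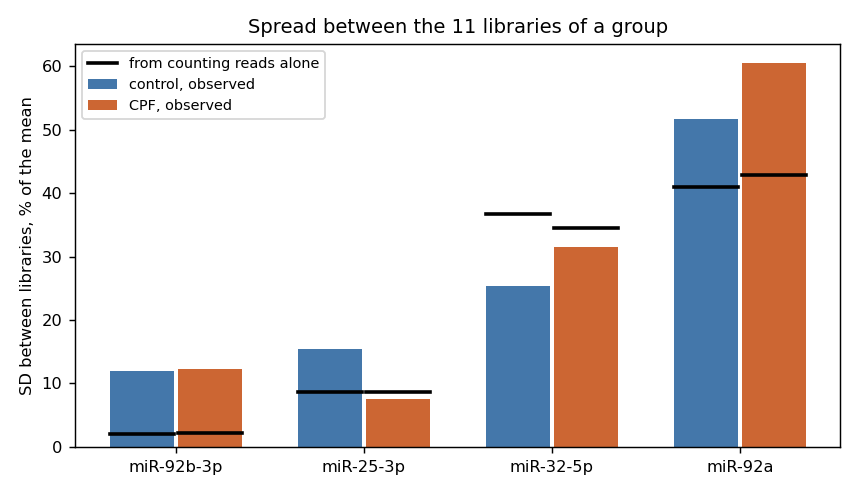
SD between the 11 libraries of a group as a percentage of the mean (bars, control blue and CPF orange) beside the SD that counting reads alone would give (black lines), for the 4 tested members. The bars of miR-92b-3p (11.9 and 12.3%) stand far above their lines (2.11 and 2.18%), while those of miR-32-5p stay below theirs.

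The miRNAs made from the same clusters as members give a context for miR-25, miR-92a and miR-363. The tables hold 9 partner names, of which 5 were tested and 0 called (limma, 0 at an unadjusted p under 0.05, median log2 fold change -0.18 beside 0.02 over all 273). miR-93-5p, which shares the Mcm7 cluster with miR-25, averaged 2499 ± 208 RPM over the controls and 2529 ± 287 RPM over the CPF libraries (SD), with a log2 fold change of 0.01 (limma adjusted p = 0.974). The arms of Mir106b, in the same cluster, were lower, with miR-106b-3p at 199 ± 51.9 and 172 ± 44.9 RPM and miR-106b-5p at 129 ± 54.1 and 129 ± 49.6. miR-93-3p, the opposite arm of miR-93-5p, averaged 8.21 RPM over all libraries, under the floor. The order within the cluster, from miR-93-5p over miR-25-3p to the miR-106b arms, was the same in both groups by mean level, and miR-25-3p stood at 0.763 ± 0.135 times the level of miR-93-5p in control and 0.734 ± 0.0661 times in CPF libraries.

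The named partners in the clusters that encode miR-92a and miR-363 were near or under the floor, apart from miR-19b. miR-19b was the most abundant of these partners at 261 ± 86.1 RPM in control and 199 ± 77.9 in CPF libraries (log2 fold change -0.38, 95% CI -0.88 to 0.12, limma adjusted p = 0.788). miR-17-5p averaged 44.2 ± 23.7 and 37.3 ± 20.4 RPM, near the floor. miR-19a-5p, miR-19b-3p and miR-20a-5p averaged 0.607 to 3.03 RPM over all libraries, under the floor. miR-19b and miR-19b-3p stand as separate names, so the split of reads between them is uncertain. The partner names include none of miR-18a, miR-20b or miR-106a, so no level of these neighbours was available. Of miR-19a only the 5p arm was named, so no level of its 3p arm was available. The low levels of miR-92a, miR-92a-3p and miR-363-3p stood beside low levels of the named neighbours other than miR-19b. miR-19b averaged 230 RPM over all libraries, at rank 120, above miR-92a at 80.4 RPM. For miR-92a-3p the split from miR-92b-3p is uncertain, as stated above.

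Library-to-library relations were computed for 1 pair of members and for 1 member with its cluster partner. Between miR-92b-3p and miR-25-3p, which have separate genes, Pearson's r was 0.18 (permutation p = 0.409, adjusted p = 0.564) and Spearman's rho 0.12 (permutation p = 0.606, adjusted p = 0.614) over 22 libraries, and r was 0.02 without the 2 libraries farthest from the median of miR-92b-3p. Within control libraries r was 0.35 and within CPF libraries -0.16. Between miR-25-3p and miR-93-5p, which share a cluster, r was 0.13 (permutation p = 0.564, adjusted p = 0.564) and rho 0.11 (permutation p = 0.614, adjusted p = 0.614), and r was 0.24 without the 2 libraries farthest from the median of miR-25-3p. Within the groups r was -0.17 in control and 0.62 in CPF libraries. These 2 relations were adjusted together. The observed SD of miR-93-5p was 1.10 times the counting SD in control and 1.53 times in CPF libraries. For miR-25-3p it was 1.77 and 0.877 times. Counting error of that size lowers a correlation, so these values cannot decide whether the miRNAs vary together. RPM of 1 library share a total, which ties all of its values.

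The names most like miR-92b-3p were sought among the 260 tested miRNAs that are no members and stand in every file, by Spearman's rho over 22 libraries. After adjustment 0 of 260 passed the permutation test (10 at an unadjusted p under 0.05). The highest rho belonged to miR-425-5p (0.61), miR-383-5p (0.57) and let-7d-3p (0.49), and the lowest to miR-29b-3p (-0.48), miR-129 (-0.48) and miR-423-5p (-0.47), with adjusted permutation p of 0.733 to 0.916. Of these 6 names, let-7d-3p (300 RPM, 22.1 reads) was the only one with more than 4 reads per library. For let-7d-3p rho had a permutation p of 0.0222 (adjusted p = 0.916), and r was 0.56 (permutation p = 0.00670, adjusted p = 0.638). Without control replicates 2 and 6, the 2 libraries farthest from the median of miR-92b-3p, rho fell from 0.49 to 0.34 and r from 0.56 to 0.49.

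Across the processing settings miR-92b-3p kept its direction. Its log2 fold change ran from -0.17 (without CPF replicate 1) to -0.10 (without CPF replicate 9) when each of the 22 libraries was left out, and from -0.20 to -0.08 in the 18 other settings. The unadjusted p fell under 0.05 in 4 of the former 22 settings and in 1 of the latter 18 (edgeR with no filter), and the adjusted p was between 0.416 and 0.991 in all of them. No setting called a member.

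**Figure D5:**
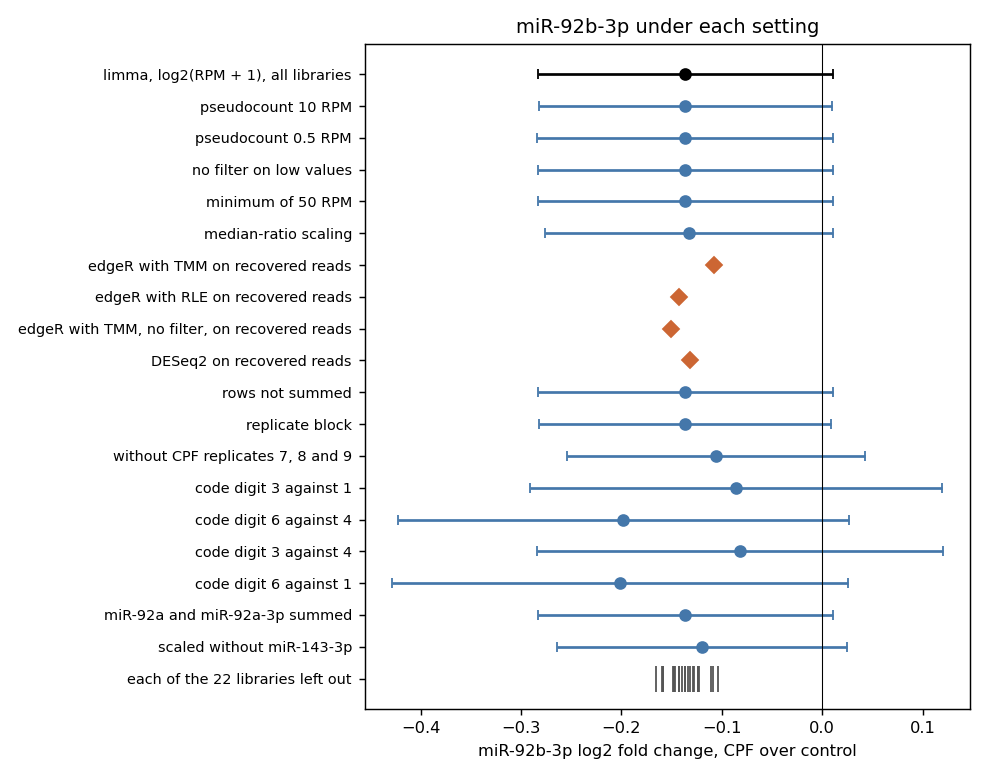
Log2 fold change of miR-92b-3p, CPF over control, under each setting, with 95% CI for limma fits (circles, the reported fit in black), values alone for edgeR and DESeq2 (diamonds), and 22 ticks for the fits that leave out 1 library each. All values lie below 0, between -0.20 and -0.08, and all intervals drawn include 0. The ticks carry no interval, and 4 of these 22 limma fits had an unadjusted p under 0.05.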

How the data were processed

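Per the labels' protocols, small RNA libraries were made with a TruSeq kit and sequenced on a HiScanSQ. The deposited files give RPM per miRNA name, computed by the authors per the file headers. CASAVA 1.8.2, cutadapt 1.2, Bowtie, Partek 6.6 and the build rn4 are listed, without roles, in the submitters' processing notes. Sources used here do not give the miRNA annotation or the handling of reads matching several names. RefSeq sequences and neighbours come from another build, so no coordinates are printed.

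Names on several rows were summed (13 of 468). The file of control replicate 2 ends after 448 of 484 rows. The missing rows (967 RPM, no member) were treated as missing. Within 0.02 RPM, 92.3 to 97.1% of the values up to 3000 RPM were whole reads, and the others were rounded to whole reads for count tests. limma 3.58.1 (R 4.3.3, trend, two-sided) was fitted to log2(RPM + 1) for 273 names. Alternatives used edgeR 4.0.16 and DESeq2 1.42.0 on recovered reads. Permutation tests (two-sided, 100000 resamples) used numpy 2.4.6. The fits and permutations were tested on simulated data. The simulated fold changes were larger than those of the members in the reported fit, so detection of such small changes was not measured. Every pair of libraries differed by more than counting noise (chi-square of at least 2.46 per degree of freedom). Fold changes are on the log2(RPM + 1) scale, and family names averaging under 3 reads in both groups get none.

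The text names all members, their cluster partners, the 3 names of highest and of lowest rho with miR-92b-3p and the most abundant names, the last extended to those above miR-92b-3p after the values were seen. Members and lists were chosen with earlier results of these data known.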

Additional observations from a re-analysis of the deposited data

How the results depend on the processing

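The number of miRNAs called over all names was 2 with limma, and between 2 and 3 (without control replicate 6, and without CPF replicate 1) in the leave-one-out fits. It was 4 with edgeR and TMM, 4 with edgeR and RLE, 5 with DESeq2, and 1 in each fit of a pair of code digits (3 against 1, 6 against 4, 3 against 4 and 6 against 1), which have fewer samples. The number of members called was 0 in all 40 settings. miR-25-3p reversed without control replicate 6 (leave-one-out range -0.0618 to 0.003), for digit 6 against 4 (0.0205) and for 6 against 1 (0.0582). miR-32-5p reversed for 3 against 1 (-0.18) and miR-92a for 6 against 4 (0.0826). These log2 values lie within the intervals of the report, and the cause was not tested. With the replicate number as a block, miR-92b-3p was at -0.14 (limma adjusted p = 0.783) and 2 miRNAs were called. The labels do not pair same-numbered libraries. Of these pairs, 3 of 11 had a correlation over 0.1 (median 0.0087, highest 0.352). Of the controls, 3 of 11 correlated best with their own number. Whether the libraries are paired cannot be told from these values. Summing the 2 miR-92a names and scaling without miR-143-3p were chosen after seeing the data. By the spread given in the report, counting alone gave at least the observed SD for miR-32-5p and for miR-25-3p in CPF libraries. The observed SD exceeded it for miR-92a (1.26 times in control and 1.41 times in CPF libraries). It also did for miR-25-3p in control libraries (1.77 times) and, most of all, for miR-92b-3p. The 5 members left out of the reported limma fit lie under the floor.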
